A study of Rattus norvegicus with 10 samples.

Results

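Rat oligodendrocytes (OLs) transfected with a miR-145 mimic and a miR-219 mimic together were compared with OLs transfected with the miR-145 mimic, so that the groups differ by the added miR-219. The comparison uses 4 of the 10 libraries of the series, 2 in each group, chosen by the group named in the sample titles and descriptions. All cells were primary oligodendrocyte precursor cells (OPCs) shaken off mixed glial cultures of neonatal Sprague-Dawley rat cortex and placed in differentiation medium with triiodothyronine and ciliary neurotrophic factor. Per the labels, each mimic was used at 30 nM and OLs were lysed 5 days after transfection. The study's sequencing methods name lentiviral delivery of miR-145 instead, and the labels were followed here. A further pair of OL libraries received a scrambled mimic (miR-ctl) and is given beside the others as background. The treatment field of the labels names both mimics for all 4 libraries compared here, while the titles, the descriptions and the column names of the count table separate the groups. The labels do not say whether cells given miR-145 alone also received a filler mimic, so miR-219 and a larger total dose of oligonucleotide cannot be told apart. RNA was sequenced from stranded mRNA libraries, and total counts per library were between 33505706 and 42684206 over the series and between 36375354 and 42062502 in the 4 libraries compared. Levels are CPM (counts scaled to a fixed library total) after TMM scaling and are not divided by gene length, so they are compared between libraries and not between genes.

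MicroRNAs lower the stability and translation of messenger RNAs that pair with their seed, the short run of bases near the 5′ end. miR-219 is enriched in OLs, increases as OPCs leave the cell cycle, and is known for repressing genes that hold precursors in an immature state, among them Pdgfra, Sox6, Hes5 and Foxj3. miR-145 is known as a repressor of OL differentiation, so the pair of mimics sets a pro-differentiation microRNA against an anti-differentiation one.

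The labels name the added mimic miR-219 without an arm or sequence. The mature rat miR-219a sequences of RefSeq (GRCr8) are therefore shown for both arms, 5′ to 3′, with the seed (bases 2 to 8) in capitals, because the seed sets which messages each arm can pair with.
rno-miR-219a-5p: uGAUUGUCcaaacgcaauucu
rno-miR-219a-1-3p: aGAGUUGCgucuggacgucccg
rno-miR-219a-2-3p: aGAAUUGUggcuggacaucugu
The 5p strand is annotated at chr3:33516561-33516581 on the minus strand, and the hairpin Mir219a1 holds the same bases. The 3p strands are annotated at chr20:4831641-4831662 on the plus strand and at chr3:33516517-33516538 on the minus strand. Each of these 3 seeds belongs to 1 mature rat microRNA of the table. The level of mature miR-219 in the cells was not analysed here.

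No gene passed the test between OLs with and without the added miR-219 in the fit without a replicate term. Of 15501 genes tested, edgeR's quasi-likelihood test called 0 in that fit at an adjusted p under 0.05, a share of 0%, and the smallest adjusted p was 1.00 after rounding. At an unadjusted p under 0.05, edgeR gave 51 genes higher, 0.329% of those tested, and 177 lower, 1.14%. DESeq2 called 9 on the same libraries and genes, 0.0581%, of which 1 was higher and 8 were lower. Both libraries of a group lay above both of the other for 2113 genes higher with miR-219, 13.6% of those tested, and for 1730 lower, 11.2%, or 24.8% in both directions. Fold changes were centred on 0, their median over all genes being -0.0028 on the log2 scale, and 7638 genes higher against 7863 lower. Genes with a mean of at least 1 CPM in either group numbered 13337. Their median standard error was 0.158 on the log2 scale, and the 95% interval of the fold change lay within 1 log2 unit of 0 for 11009 of them, 82.5%. Smaller differences were not detectable for many genes with 2 libraries in each group. With a replicate term added, edgeR called 184 of the 15501 genes, 66 higher and 118 lower. No label states that the replicate numbers pair libraries across groups. Unless a replicate term is named, edgeR tests and intervals are from the fit without it.

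**Figure D1:**
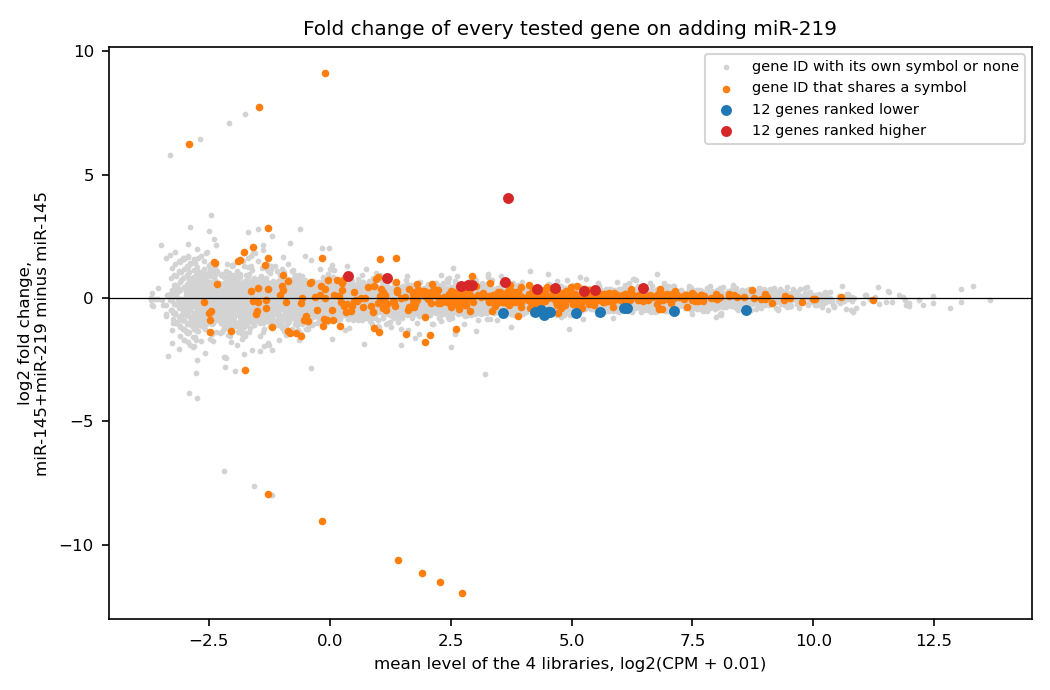
Log2 fold change (miR-145+miR-219 minus miR-145) of each of the 15501 tested genes against its mean level in the 4 libraries as log2(CPM + 0.01). Most genes lie near 0, and of the 8 IDs that DESeq2 called lower, 6 share a symbol with another ID (orange) and are listed at 0 in both miR-145+miR-219 libraries.

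Of the 9 gene IDs that DESeq2 called, 7 carry a symbol that another gene ID also carries, so reads of near-identical sequences can be split between IDs. Rbm12 encodes an RNA-binding protein. One of its IDs, ENSRNOG00000050864, was at 0 CPM in both libraries with miR-219 and was measured at 17.6 and 8.99 CPM without it, while ENSRNOG00000046990 was at 39.2 and 42.6 CPM against 24.5 and 33.1 CPM. Summed over its IDs, Rbm12 was at 72.3 and 74.8 CPM with miR-219 and at 72.6 and 73.8 CPM without it, and the groups overlapped.

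Pigg, an enzyme of glycosylphosphatidylinositol anchor assembly, showed the same arrangement. ENSRNOG00000049895 was at 0 CPM in both libraries with miR-219 and at 8.42 and 6.46 CPM without it, whereas the sum over both Pigg IDs was 34.0 and 39.2 CPM against 30.3 and 38.3 CPM. Myh9, the heavy chain of a non-muscle myosin, summed to 209 and 194 CPM against 220.2 and 235 CPM. Smarcb1, a subunit of the SWI/SNF chromatin remodelling complex, summed to 117 and 109 CPM against 121 and 108 CPM. The remaining shared symbols were Nat8b, Mboat7l1 and Oas1i, and over all 7 symbols the log2 fold change of the sum ran from -0.21 to 0.14. With shared symbols summed before the fit, DESeq2 called 0 genes of 15232 and edgeR called 0, with 212 at an unadjusted p under 0.05. In the plain fit 24 of the 228 genes at that level shared a symbol.

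The other 2 IDs that DESeq2 called were of low level. LOC100911837 had 0 counts in both libraries with miR-219 and 32 and 30 counts in the libraries without it. In miR-ctl cells, which received no miR-219, LOC100911837 was at 0.628 and 0 CPM, so 1 of those libraries was also at 0. LOC100912471 likewise had 0 counts against 38 and 24, and was at 0.477 and 0.430 CPM in miR-ctl cells. A count of 0 allows up to 3 counts, or 0.0842 CPM in the smaller library, and on that floor the mean miR-145 level was at least 9.98-fold higher for LOC100911837 and at least 10.1-fold higher for LOC100912471. The DESeq2 adjusted p was 0.040 for each, and these bounds cover counting error only.

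Of 17 symbols in the list of reported miR-219 targets, 13 were tested, and 7 had a fold change above 0 and 6 below. Their median log2 fold change was 0.0019, beside -0.0028 for all genes tested, of which 49.3% were higher. The median was -0.19 without miR-145+miR-219 library 1 and 0.10 without library 2 of that group. Both libraries with miR-219 lay below both without it for Ccl2 and Zbtb18 and above for Pard3 and Dazap1. The groups overlapped for the other 9. Over all genes tested, 11.2% were separated lower and 13.6% higher. Neurod1, Isl1 and Otx2 had no matching symbol, and Zfp238 is an older symbol of Zbtb18.

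Among targets that hold OPCs immature, Pdgfra, the receptor through which platelet-derived growth factor keeps precursors dividing, was at 185 and 148 CPM with miR-219 and at 169 and 174 CPM without it. The 95% interval of its log2 fold change was -0.41 to 0.32, so a fall of more than 0.41 lay outside it. Sox6, a transcription factor of undifferentiated precursors, was at 115 and 93.3 CPM against 95.4 and 90.7 CPM, with an interval of -0.19 to 0.50. For both genes the groups overlapped. Hes5, a Notch effector, stayed below 1 CPM in all 4 libraries at 0.889 and 0.561 against 0.750 and 0.530 CPM. Lingo1, a membrane protein that restrains OL maturation, was at 30.3 and 23.9 CPM against 34.4 and 19.3 CPM, and the spread within the miR-145 pair exceeded the difference.

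Foxj3, a forkhead transcription factor, was at 45.2 and 35.7 CPM with miR-219 and at 45.2 and 42.7 CPM without it. Zbtb18, a zinc finger repressor, was at 37.8 and 30.4 CPM against 44.0 and 39.2 CPM, a log2 fold change of -0.30 ± 0.15 (SE) that was -0.15 without miR-145+miR-219 library 2, and its groups did not overlap. Etv5, a transcription factor of the ETS family, was at 63.2 and 36.9 CPM against 67.4 and 51.8 CPM. Of these 3 regulators only Zbtb18 had separated libraries, and none passed the test.

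Ccl2, a chemokine that attracts monocytes, had the lowest fold change of the list. It was at 2.79 and 3.00 CPM with miR-219 and at 4.04 and 7.78 CPM without it, against 25.98 and 13.7 CPM in miR-ctl cells. Its log2 fold change was -1.04 ± 0.37 (SE), with an unadjusted edgeR p of 0.040, and it was -0.48 without miR-145 library 2. Elovl7, an elongase of long-chain fatty acids, had the highest fold change at 0.77 ± 0.40 (SE), which was 0.28 without miR-145+miR-219 library 2 and 1.22 without miR-145 library 2. Its levels were 7.26 and 13.1 CPM against 4.39 and 7.42 CPM, and the groups overlapped by a small margin.

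The polarity genes of the list lay close to 0. Pard3 was at 61.5 and 64.0 CPM with miR-219 and at 54.3 and 58.6 CPM without it. Prkci, an atypical protein kinase C, was at 92.2 and 78.0 CPM against 86.5 and 82.3 CPM. Dazap1, an RNA-binding protein, was at 52.2 and 62.3 CPM against 52.1 and 52.0 CPM, so that its groups were separated only by a narrow gap. Camk2g, a subunit of a calcium-dependent kinase, was at 174 and 97.4 CPM against 208 and 119.7 CPM.

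**Figure D2:**
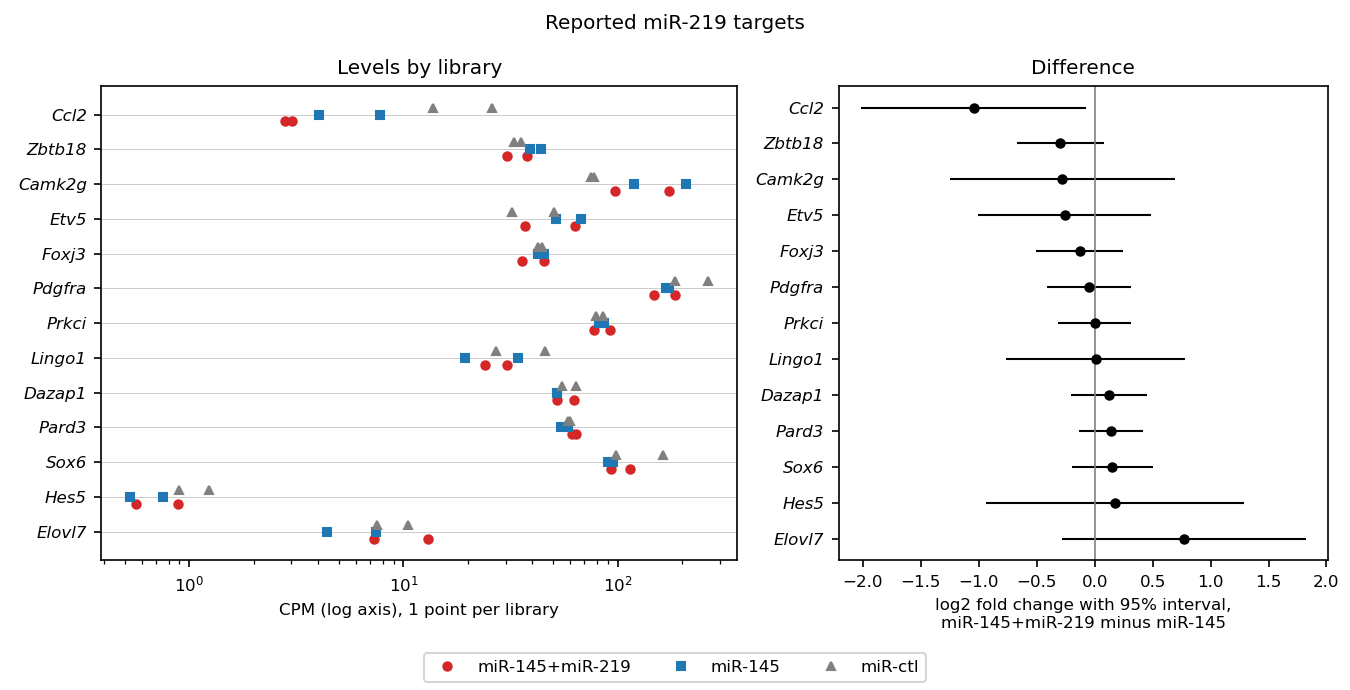
Levels of the 13 tested reported miR-219 targets in CPM (log axis, 1 point per library of the 3 OL groups) and their log2 fold changes, miR-145+miR-219 minus miR-145, with 95% intervals from edgeR. Of the 13 intervals only that of Ccl2, whose fold change was -1.04, does not include 0.

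Genes lower with miR-219, with their own symbol and separated libraries, were ranked by unadjusted p, and the first was Inpp5j, an inositol polyphosphate phosphatase. It was at 113 and 116 CPM with miR-219 and at 170.1 and 161 CPM without it, a log2 fold change of -0.54 ± 0.10 (SE) with an unadjusted edgeR p of 0.0028. Sphk1, which makes sphingosine-1-phosphate, was at 18.0 and 15.2 CPM against 28.5 and 24.0 CPM, the furthest from 0 of the 12 lower genes at -0.67 ± 0.15 (SE). Bcl3, a nuclear cofactor of NF-kB, was at 20.0 and 18.6 CPM against 28.2 and 27.9 CPM. For each of these genes the gap between groups was wider than the spread within either group. None passed adjustment over all genes in the fit without a replicate term.

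Transporters were also among the 12 lower genes. Slc25a29, a mitochondrial carrier of basic amino acids, was at 29.4 and 25.0 CPM with miR-219 and at 42.3 and 39.0 CPM without it. Slco3a1, an organic anion transporter, was at 43.0 and 35.1 CPM against 59.5 and 55.3 CPM. The membrane protein Tmem176b was at 337 and 312 CPM against 443 and 463 CPM. Asgr1, a subunit of the asialoglycoprotein receptor, was at 9.61 and 9.49 CPM against 15.4 and 13.6 CPM.

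Timp1, an inhibitor of matrix metalloproteinases, was at 60.1 and 62.2 CPM against 78.5 and 82.7 CPM. Vsir, an immune checkpoint receptor, was at 59.5 and 58.7 CPM against 80.0 and 73.4 CPM. Micall2, Engase and Aadat, which act in membrane trafficking, glycoprotein deglycosylation and kynurenine metabolism, had log2 fold changes of -0.59, -0.50 and -0.55. Over the 12 lower genes fold changes ran from -0.67 to -0.39 and unadjusted p from 0.0028 to 0.012. These genes were ranked on this contrast, so their values describe it and are no test of it.

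The 12 genes ranked higher began with Kcnma1, the pore-forming subunit of the BK potassium channel. It was at 15.7 and 14.5 CPM with miR-219 and at 10.2 and 9.02 CPM without it, a log2 fold change of 0.64 ± 0.15 (SE). Carmil1, a regulator of actin capping, was at 96.7 and 107 CPM against 76.3 and 76.8 CPM. Pcsk1n, the precursor of an inhibitor of prohormone convertase, was at 28.2 and 29.5 CPM against 21.98 and 21.2 CPM. Each of these 3 genes had a narrow spread within the groups compared and separated libraries. The miR-ctl libraries spread wider, at 50.9 and 81.7 CPM for Carmil1 and 30.9 and 18.9 CPM for Pcsk1n.

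Klf11, a zinc finger transcription factor, was at 21.3 and 22.4 CPM with miR-219 and at 17.4 and 16.8 CPM without it. Pxdn, which crosslinks collagen IV, was at 8.37 and 9.88 CPM against 6.09 and 6.46 CPM. Galnt16, which starts O-linked glycans, was at 46.6 and 52.2 CPM against 39.9 and 39.5 CPM. The shape regulator Shroom3 and the membrane proteins Tmem145 and Eva1c were under 10 CPM in every library, and Btbd3 was at 41.0 and 44.2 CPM against 34.6 and 34.2 CPM. Of the unnamed loci, LOC108351584 was at 7.39 and 7.94 CPM against 5.45 and 5.28 CPM. LOC103692829 was at 37.0 and 11.5 CPM against 0 and 2.80 CPM, and its spread within each group was wide. Unadjusted p ran from 0.0076 to 0.041 over the 12 higher genes.

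Levels in miR-ctl cells are given beside some of these genes as background. Both comparisons with miR-ctl share its libraries, and each also shares the libraries compared here. Inpp5j was at 132 and 123 CPM in miR-ctl cells, with a log2 fold change of 0.38 for miR-145 and -0.15 for miR-145+miR-219. Tmem176b was at 249.5 and 288 CPM, with fold changes of 0.76 and 0.28. Klf11 was at 25.9 and 27.4 CPM, with -0.63 and -0.28. Kcnma1 was at 9.20 and 12.7 CPM, with -0.18 and 0.47.

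**Figure D3:**
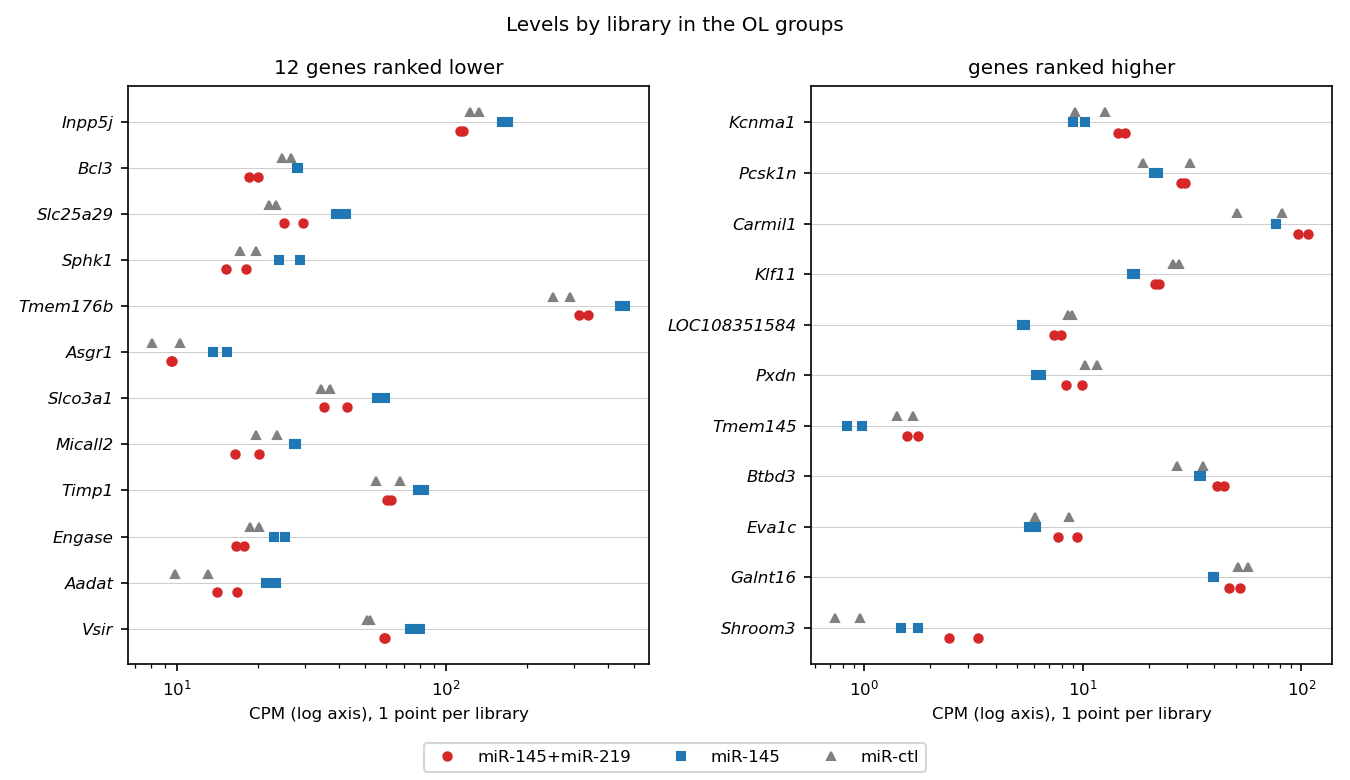
CPM (log axis, 1 point per library) of the 12 genes ranked lower and of 11 of the 12 ranked higher, in the miR-145+miR-219, miR-145 and miR-ctl groups. LOC103692829, which has a library at 0, is not drawn. Inpp5j lies at 113 and 116 CPM with miR-219 against 170.1 and 161 CPM without it.

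Markers of mature OLs were present in all 4 libraries, and Mbp, Mag and Mog differed more between libraries of a group than between group means. Mbp, a structural protein of compact myelin, was at 8096 and 15517 CPM with miR-219 and at 6236 and 10665 CPM without it, and the groups overlapped. Mag, an adhesion protein of the myelin next to the axon, was at 772 and 1408 CPM against 628 and 956 CPM. Mog, on the outer face of the sheath, was at 22.9 and 43.6 CPM against 17.7 and 38.7 CPM. The log2 fold change of Mbp was 0.47 ± 0.42 (SE), with a 95% interval of -0.64 to 1.57. For all 3 genes library 2 was above library 1 in each OL group, miR-ctl included. With a replicate term, edgeR's adjusted p was 0.013 for Mbp, 0.033 for Mag and 0.30 for Mog. Whether the same number marks the same culture is not stated.

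Over the myelin list, 23 of 25 tested genes had a fold change above 0, with a median of 0.33 beside -0.0028 over all genes, and 0 passed the test. The groups overlapped for 24 of the 25, where 24.8% of all genes tested had separated libraries. The exception, Plekhb1, was separated lower, at 29.6 and 30.5 CPM against 34.0 and 31.2 CPM. Summed over the list, levels were 27603 and 45323 CPM with miR-219, 23083 and 34024 CPM with miR-145 alone, and 27226 and 42509 CPM in miR-ctl cells. The median was -0.07 without miR-145+miR-219 library 2, and 0.80 without miR-145 library 2. The highest fold changes were those of Gjb1 and Ermn. Gjb1, a connexin, was at 31.8 and 68.4 CPM against 19.4 and 38.6 CPM. Ermn, a cytoskeletal protein of mature OLs, was at 8.35 and 17.3 CPM against 2.97 and 12.1 CPM. Car2, a carbonic anhydrase, had the lowest, at 68.8 and 32.5 CPM against 97.7 and 47.9 CPM. Genes named from here on without being in the ranked set were picked after their values were seen, as examples of their list.

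Premyelinating genes, which mark OLs between the precursor and the mature stage, had 14 of 17 above 0 with a median of 0.11 that was 0.058 without miR-145+miR-219 library 2. Libraries were separated for 5 genes higher and 2 lower, where 13.6% and 11.2% of all genes tested were. The 2 lower were Sema4f, at 0.889 and 1.15 CPM against 1.21 and 1.92 CPM, and Kif19, at 11.8 and 12.5 CPM against 12.9 and 14.4 CPM. Gpr17, a receptor that peaks in committed precursors, was at 224 and 232 CPM with miR-219 and at 208 and 183 CPM without it, against 375 and 265 CPM in miR-ctl cells. Casr, the calcium-sensing receptor, was at 3.66 and 4.10 CPM against 2.37 and 2.95 CPM. Enpp6, a marker of newly formed OLs, was at 116 and 171 CPM against 97.8 and 151 CPM, with overlapping groups. The summed list was at 4102 and 4093 CPM against 3924 and 3479.7 CPM.

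The OPC list had 8 of 25 genes above 0 and a median of -0.09, which was 0.13 without miR-145 library 1. Cspg4, the NG2 proteoglycan of precursors, was at 50.8 and 43.7 CPM with miR-219 and at 50.2 and 44.3 CPM without it. The groups overlapped for 24 of the 25 genes, where 24.8% of all genes tested had separated libraries, and 0 passed the test. Sox9 was the exception, at 61.5 and 45.9 CPM against 76.1 and 67.0 CPM, and it is also an astrocyte marker.

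Transcription factors of the OL lineage had 21 of 29 above 0, with a median of 0.09 that was 0.019 without miR-145 library 2. Olig2, which specifies the lineage, was at 323 and 365 CPM with miR-219 and at 298 and 289.8 CPM without it, and its libraries were separated. Sox10, which drives OL genes with it, was at 439 and 632 CPM against 434 and 454 CPM. Myrf, the main activator of myelin genes, was at 439.7 and 689 CPM against 405 and 569 CPM. Tcf7l2, a partner of beta-catenin needed for OL maturation, was at 47.8 and 49.9 CPM against 46.6 and 44.1 CPM, and its interval ran from -0.16 to 0.35. The groups overlapped for 24 of the 29 factors, and over all genes tested 24.8% had separated libraries.

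Reported or proposed miR-145 targets were read to see whether levels under the shared miR-145 mimic moved with miR-219. Of 16 tested, 9 had a fold change above 0, with a median of 0.06 that was -0.11 without miR-145 library 1. Of the 16, 6 were separated higher and 2 lower, beside 13.6% and 11.2% of all genes tested. Serinc5, which incorporates serine into membrane lipids, was at 1095 and 1272 CPM against 1045 and 1058 CPM. Add3, an adducin that caps actin, was at 294 and 215 CPM against 313 and 303 CPM. All 16 fold changes were between -0.42 and 0.20. The protein-coding genes of the microRNA machinery, read beside them, had 14 of 16 above 0 with a median of 0.05 that was 0.025 without miR-145 library 1 and 0.14 without library 2 of that group. Ago2, the slicing Argonaute, was at 20.7 and 19.2 CPM against 18.1 and 19.5 CPM.

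Cholesterol synthesis, which supplies the main lipid of myelin, had 23 of 24 genes above 0 with a median of 0.20, and the median stayed between 0.02 and 0.43 with any 1 library left out. Libraries were separated for 5 genes higher and 1 lower, beside 13.6% and 11.2% of all genes tested, and 0 passed the test. Nsdhl, a sterol dehydrogenase of the pathway, was at 63.7 and 61.9 CPM with miR-219 and at 59.7 and 49.9 CPM without it. Hsd17b7, a sterol ketoreductase, was at 17.5 and 15.8 CPM against 14.6 and 11.7 CPM. Ebp, an isomerase of the pathway, had the single fold change below 0, at 11.7 and 11.7 CPM against 12.5 and 12.3 CPM. Set beside miR-ctl, whose libraries both comparisons share, the list's median was -0.44 for miR-145 and -0.25 for miR-145+miR-219. Fatty acid elongation and synthesis had 12 of 23 above 0 and a median of 0.02.

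**Figure D4:**
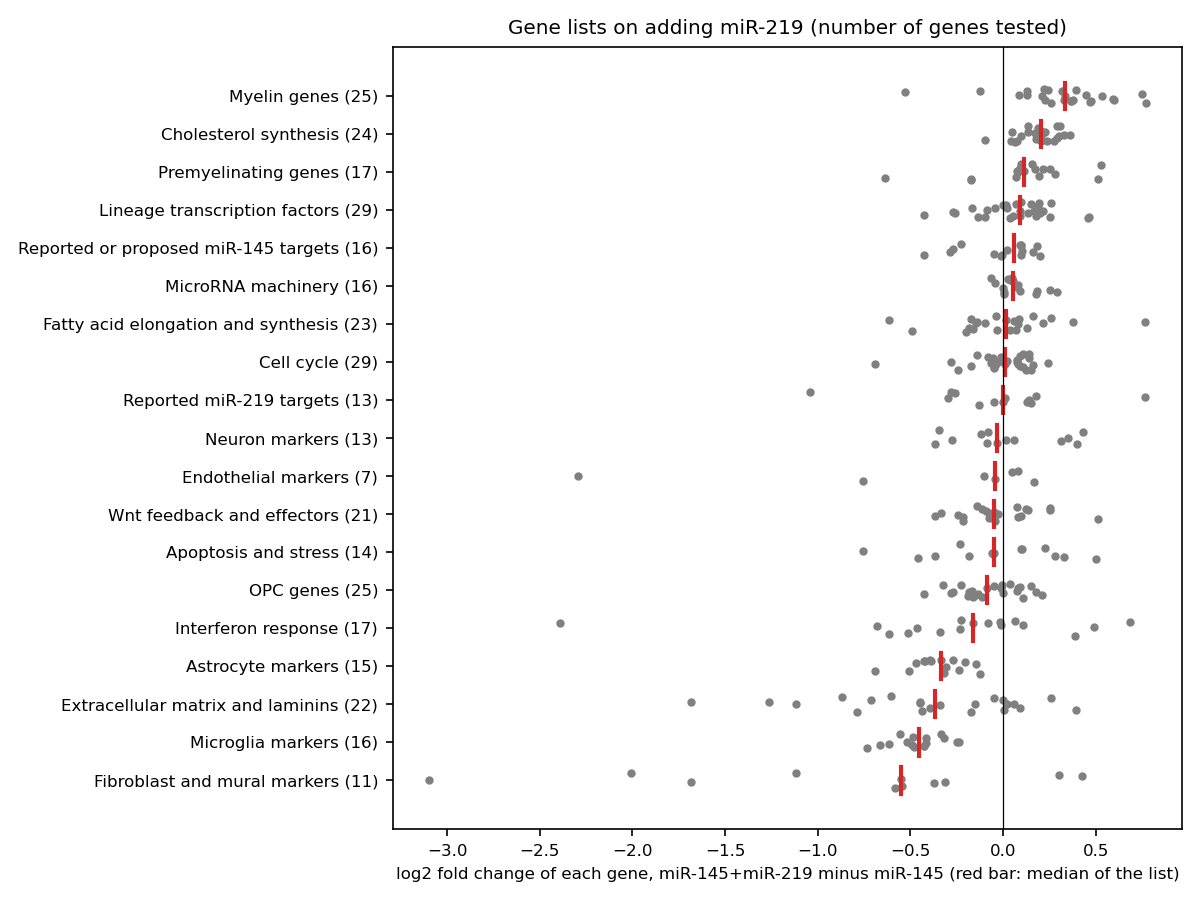
Log2 fold change (miR-145+miR-219 minus miR-145) of each tested gene in 19 lists, with the median of each list as a red bar and the number of genes tested in parentheses. Medians ran from -0.55 for fibroblast and mural markers to 0.33 for myelin genes, and 0 genes passed the edgeR test without a replicate term.

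Markers of other glia were also present in these OL cultures, with fold changes below 0. Gfap, the intermediate filament of astrocytes, was at 7754 and 4860.5 CPM with miR-219, at 9708 and 6709 CPM with miR-145 alone, and at 4799 and 4179 CPM in miR-ctl cells. All 15 astrocyte markers had a fold change below 0, with a median of -0.33. Of the 15, 12 overlapped between groups and 3 were separated lower, where 11.2% of all genes tested were. Summed, the 15 markers were at 15053 and 8823 CPM against 18196 and 12493 CPM, and at 8555 and 7349 CPM in miR-ctl cells. The median was -0.85 without miR-145+miR-219 library 1 and -0.0012 without library 2 of that group. Among them Aqp4, a water channel, was at 453 and 252 CPM against 433 and 342 CPM. In bulk RNA fewer cells of a type and less RNA per cell cannot be told apart.

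Microglia markers had 16 of 16 fold changes below 0 and a median of -0.45. Of the 16, 15 overlapped and 1 was separated lower, where 11.2% of all genes tested were. The sum of the 16 markers was 671 and 1073 CPM with miR-219, 724 and 1597 CPM without it, and 669 and 936 CPM in miR-ctl cells. C1qa, a complement subunit of microglia, was at 73.7 and 141 CPM against 80.9 and 203 CPM. The median was 0.28 without miR-145 library 2, which carried the highest sum. Fibroblast and mural markers had 2 of 11 above 0, with a median of -0.55 and sums of 79.8 and 66.7 CPM against 75.6 and 114 CPM. That median was -0.30 without miR-145 library 2. The median of -0.55 was the value of Vtn, at 0.0988 and 0.0842 CPM against 0.144 and 0.126 CPM. Acta2 and Cnn1 were also under 1 CPM in all 4 libraries. Tagln was above 0, at 51.1 and 37.2 CPM against 40.1 and 31.1 CPM. Of the 11, 6 had separated libraries, all lower and Vtn among them, where 11.2% of all genes tested were separated in that direction. Col3a1, a fibrillar collagen, was at 1.31 and 2.61 CPM against 3.06 and 29.9 CPM, and its log2 fold change of -3.10 was -0.64 without miR-145 library 2. Endothelial markers had 3 of 7 above 0 with a median of -0.05, and Flt1, a receptor for vascular endothelial growth factor, was under 1 CPM in all 4 libraries. Neuron markers had 6 of 13 above 0 with a median of -0.03. The part of these marker levels in the values of the other lists was not tested.

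**Figure D5:**
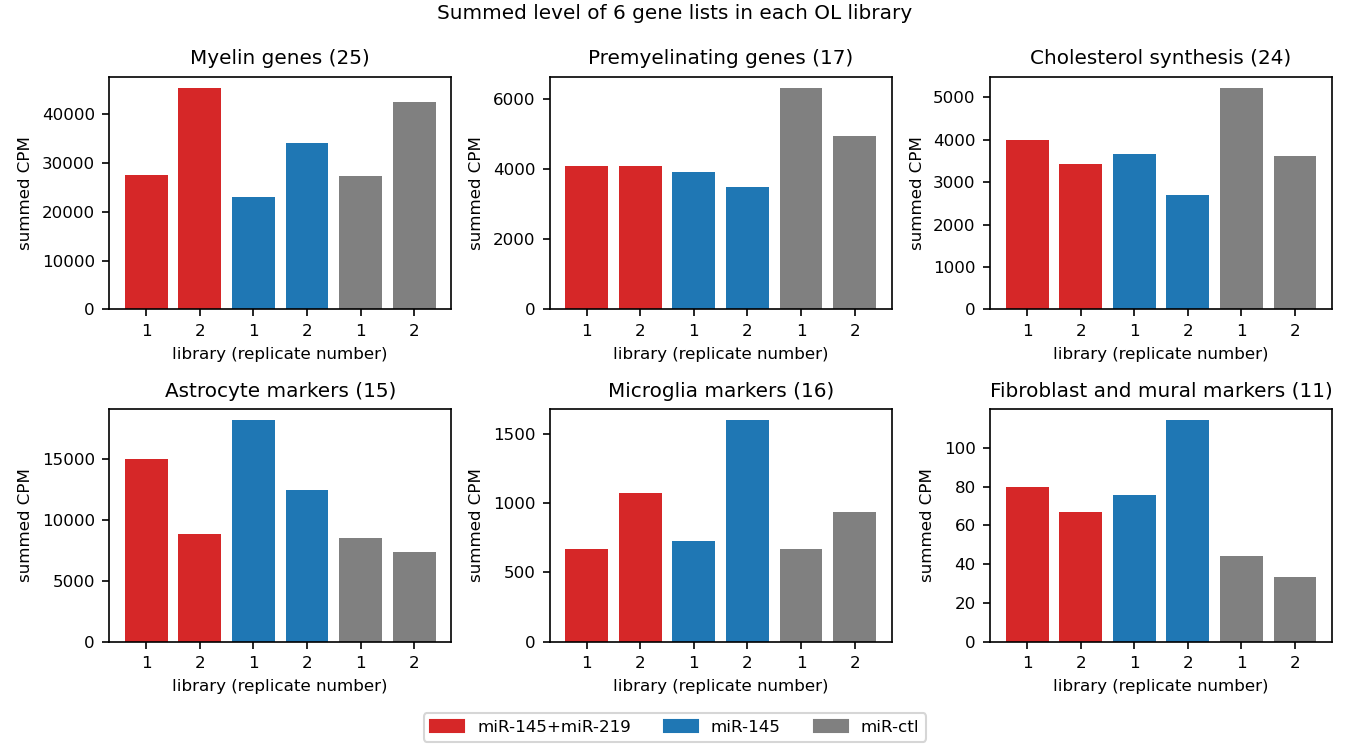
Summed CPM of 6 gene lists in each OL library, with bars from 0 for replicates 1 and 2 of the miR-145+miR-219, miR-145 and miR-ctl groups and the number of genes in parentheses. Myelin genes ranged from 23083 to 45323 CPM over the 6 libraries, and the groups overlapped in that panel.

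Extracellular matrix genes and laminins had 6 of 22 above 0, with a median of -0.37 that was -0.12 without miR-145 library 2. Libraries were separated for 6 genes lower and 2 higher, beside 11.2% and 13.6% of all genes tested. Lamb2, a laminin chain of basement membranes, was at 92.9 and 81.6 CPM with miR-219 and at 111 and 117 CPM without it, a log2 fold change of -0.40 ± 0.12 (SE). Tnc, a glycoprotein of the matrix made by glia, went the other way at 157 and 124 CPM against 105 and 108 CPM, 0.39 ± 0.14 (SE), which was 0.22 without miR-145+miR-219 library 1. Both had an unadjusted edgeR p under 0.05 and neither passed adjustment. Fn1, a fibronectin, was at 29.0 and 25.0 CPM against 19.1 and 78.1 CPM, so 1 library set its group mean. The medians of the astrocyte list and of the fibroblast and mural list were also below 0, and their part in this one was not tested.

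Stress genes had 6 of 14 above 0 with a median of -0.05. Hmox1, the heme oxygenase induced by oxidative stress, was at 232 and 145.5 CPM with miR-219, at 340.2 and 291 CPM without it, and at 127 and 136 CPM in miR-ctl cells. Its log2 fold change of -0.75 ± 0.24 (SE) was -0.46 without miR-145+miR-219 library 2. Ddit3, a transcription factor of the unfolded protein response, was at 70.3 and 84.7 CPM against 63.0 and 59.5 CPM. Cdkn1a, the p21 inhibitor of cell cycle kinases, was at 274 and 263 CPM against 343 and 284 CPM. All 3 had separated libraries, Hmox1 and Cdkn1a lower and Ddit3 higher. Of the 14 stress genes, 3 were separated higher and 4 lower, beside 13.6% and 11.2% of all genes tested.

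The interferon response, which double-stranded RNA can induce, had 5 of 17 genes above 0, a median of -0.16 and 6 genes with separated libraries, all lower, where 11.2% of all genes tested were separated in that direction. Ddx58, a sensor of cytoplasmic RNA, was at 15.7 and 12.4 CPM with miR-219 and at 17.1 and 18.2 CPM without it. Isg15, a ubiquitin-like modifier, was at 1.85 and 1.88 CPM against 2.42 and 2.85 CPM. Cxcl10, an interferon-induced chemokine, was under 1 CPM in all 4 libraries at 0.0494 and 0.0842 against 0.202 and 0.505 CPM.

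Cell cycle genes had 15 of 29 above 0 with a median of 0.01, and 27 of the 29 overlapped. Over all genes tested 24.8% had separated libraries. Mki67, a marker of dividing cells, was at 38.6 and 51.1 CPM with miR-219 and at 28.6 and 63.1 CPM without it. Aurkb, a mitotic kinase, was at 24.9 and 23.4 CPM against 31.0 and 46.5 CPM, a log2 fold change of -0.69 ± 0.22 (SE) that was -0.35 without miR-145 library 2. Genes of Wnt feedback and effectors had 8 of 21 above 0 and a median of -0.05. Axin2, a feedback inhibitor of the pathway, was at 7.02 and 6.51 CPM against 6.89 and 7.27 CPM. Prickle1, a planar polarity protein, was at 105 and 122 CPM against 92.1 and 96.7 CPM, with separated libraries. Of the 21, 3 were separated higher and 1 lower, beside 13.6% and 11.2% of all genes tested. The lower one was Fzd2, at 16.1 and 15.2 CPM against 21.8 and 17.4 CPM.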

How the data were processed

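Per the study's methods, Salmon 0.12.0 matched reads to GENCODE transcripts of RNor6. The authors deposited estimated counts without normalization for 23487 gene IDs, of which 4030 were at 0 in every library. Between 16.0% and 17.5% of a library's values were not whole, and they were rounded. The strand setting was not given in the sources used here. Symbols (other, a text column) came from a table the authors deposited, with symbols for 14561 of its 16129 genes. That table also holds the authors' DESeq2 comparison of miR-145 with miR-ctl (log2 fold change, its error, a Wald statistic and p-values), which was not used. The 266 symbols on 557 IDs were set aside from lists and ranked genes.

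Fits used R 4.3.3 with edgeR 4.0.16 (estimateDisp, glmQLFit and glmQLFTest, TMM) on the 4 libraries, keeping genes that reached 5 counts in 2 or more libraries, with Benjamini-Hochberg adjustment and a threshold of 0.05. DESeq2 1.42.0 was an alternative, as were its size factors, 3 filters on low counts, fits over 3 or 5 groups, a replicate term, and leaving out shared symbols or each library. The study's reporting summary takes each N as a biological replicate, for primary cultures the cells of 1 animal (there a mouse), and the sample descriptions number the libraries of a group N1 and N2. The sources used here do not state whether the same N in different groups came from the same culture. Named genes were the 12 higher and 12 lower of smallest p with separated libraries, their own symbol and a mean of at least 1 CPM in either group, every DESeq2 call, the tested miR-219 targets, and list members under an unadjusted p of 0.05 or fixed by name, apart from items that are not reported here. The members and lists were chosen with earlier results of these data known. Tables and figures used Python 3.11.15, numpy 2.4.6, pandas 2.3.3 and matplotlib 3.10.9. The functions were tested on simulated data.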

Additional observations from a re-analysis of the deposited data

How the results depend on the processing

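edgeR called 0 genes with DESeq2's size factors, with each of 3 other filters, in fits over 3 or 5 groups, without shared symbols and without any 1 library, and DESeq2 called 9. No label states that the numbers 1 and 2 pair libraries across groups, and the same-numbered libraries' deviations from their group means had a correlation of 0.58 across genes. With the replicate block edgeR called 184 genes, 66 higher and 118 lower, 13 of them on shared symbols, and the log2 fold change of Prkci was -0.0026. Among genes named in the report, edgeR's adjusted p with the block was 0.014 for Inpp5j, 0.016 for Sphk1 and 0.0088 for Hmox1. It was 0.011 for Col3a1, 0.013 for Mbp, 0.033 for Mag and 0.033 for Elovl7. Of the 12 genes ranked lower, only Vsir was not under 0.05 in that fit, at 0.057. Of those ranked higher, Kcnma1 at 0.033 and LOC103692829 at 0.034 were under 0.05. Outside the ranking, Aurkb was at 0.048, and LOC100911837 and LOC100912471 were each at 0.0091. Leaving out each library in turn turned the sign of these log2 fold changes, whose ranges were -0.031 to 0.50 for Sox10, -0.053 to 0.82 for Mag, -0.0017 to 0.29 for Sox6, -0.079 to 0.93 for Mbp, -0.0084 to 0.25 for Dazap1, -0.70 to 0.073 for Etv5, -0.31 to 0.028 for Foxj3, -0.75 to 0.16 for Camk2g, -0.16 to 0.49 for Myrf, -0.12 to 0.56 for Enpp6, -0.32 to 0.91 for Mog, -0.19 to 0.46 for Hes5, -0.21 to 0.10 for Pdgfra, -0.12 to 0.093 for Cspg4, -0.34 to 0.47 for Lingo1 and -0.12 to 0.12 for Prkci. List medians whose sign also turned, beyond those given with their lists, ran from -0.10 to 0.09 for fatty acid genes, -0.22 to 0.35 for the cell cycle, -0.13 to 0.04 for Wnt genes, -0.09 to 0.02 for stress genes, -0.42 to 0.10 for endothelial and -0.09 to 0.08 for neuron markers. The cause was not tested. Summing shared symbols was chosen after seeing the data. Matches to the miR-219 seed were not run, since no untranslated region sequence was used here. With 1 library in a group, the lone library is assumed to vary like the rest.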
